A study of Mus musculus with 4 samples.

Results

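The genes described here are Trp53, which encodes the transcription factor p53, and 9 genes known as p53 targets in cell cycle arrest and stress: Cdkn1a, Mdm2, Ccng1, Sesn2, Trp53inp1, Perp, Phlda3, Zmat3 and Gdf15. They were taken by symbol from a deposited table of 37574 genes, and each of the 10 matched 1 row with a completed test. The RNA came from oral tumours of C57BL/6 mice that carried Bmi1CreER and tdTomato and had been given 4NQO, a carcinogen that forms bulky DNA adducts, for 26 weeks. All samples were taken 24 hours after tamoxifen, which switches on the Cre so that cells with an active Bmi1 promoter turn Tomato-positive. Tumour cells bearing EpCAM, an epithelial adhesion molecule, were sorted by Tomato into a negative and a positive fraction, with 2 samples of each, 4 in all. Animal ages are not given in the labels, nor whether the samples came from separate animals. The label marks only cells in which Cre recombined, and Bmi1 itself was listed at 3.11 FPKM in the unlabelled and 7.03 FPKM in the labelled fraction.

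p53 is held low by the ubiquitin ligase Mdm2, itself a p53 target, and accumulates when DNA damage or other stress breaks that loop. It then raises genes that stop the cell cycle, alter metabolism, limit growth signals or promote death. In stratified epithelia p53 works beside its relative p63, which shares some of its targets. Chemically induced squamous tumours can carry Trp53 mutations. The table holds RNA levels and no sequence, so the mutation status of Trp53 was not analysed here, and Trp53 RNA does not measure p53 protein.

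The values are FPKM, in which fragment numbers are divided by the length of the transcript and by the size of the library, which allows levels of different genes to be compared per length. The authors' deposited table joins the samples of a fraction into 1 value per gene, so no SD can be given and no depth per sample is known. Pairs of FPKM values are given with Tomato-negative cells first. Differences are given as log2 of Tomato-positive over Tomato-negative FPKM. A gene was counted as called when the authors' q-value, the Cuffdiff p-value adjusted over all 16219 tested genes, was below 0.05. Any spread between samples enters only through that test.

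Of the 10 p53 genes, 1 was called higher and 1 called lower in the labelled cells by the authors' deposited q-values. Phlda3, an inhibitor of AKT signalling, rose 1.72-fold, and Trp53inp1, which promotes p53 activity and autophagy under stress, fell 1.61-fold. Over all tested genes 27.2% were called, 13.0% higher and 14.2% lower, so the share of called p53 genes was near the background. The other 8 did not pass, 5 of them with a numerically higher and 3 with a numerically lower value in Tomato-positive cells. None of the 10 reached a 2-fold difference, a size that 25.1% of tested genes reached whatever their q-value. With q below 0.05 as well, 7.11% of tested genes were at least 2-fold higher and 9.67% at least 2-fold lower, 16.8% in all. The median log2 difference of the 10 was 0.19, beside 0.02 over the tested genes with both values above 0, and their median size without sign was 0.42, beside 0.46.

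**Figure D1:**
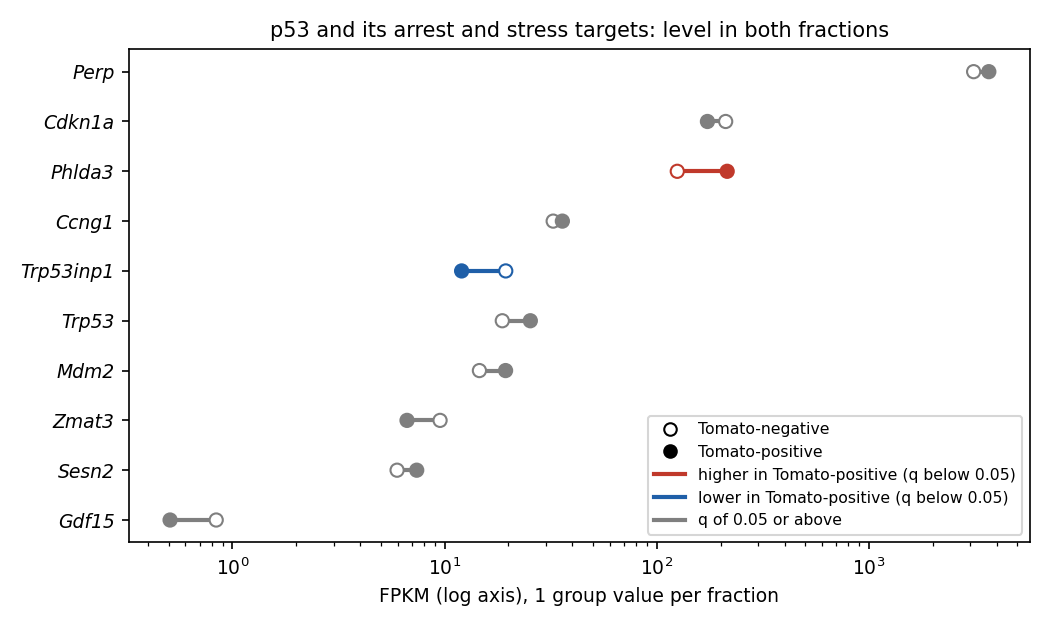
FPKM of the 10 genes on a log axis, with open circles for Tomato-negative and filled circles for Tomato-positive cells, 1 group value each and no error bars. Perp stands highest and Gdf15 lowest in both fractions, and only the lines of Phlda3 and Trp53inp1 carry the colours of called genes.

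The levels spanned a wide range, with much the same order of the 10 genes in both fractions. Perp was highest at 3114 and 3671 FPKM, a level above that of 99.8% of tested genes in either fraction. Cdkn1a and Phlda3 followed at over 100 FPKM in both fractions. A group of 6 genes (Ccng1, Trp53inp1, Trp53, Mdm2, Zmat3 and Sesn2) lay between 5 and 40 FPKM, and Gdf15 was below 1 FPKM. The order changed among genes of similar level. Cdkn1a stood above Phlda3 in Tomato-negative cells and below it in Tomato-positive cells, the Phlda3 to Cdkn1a ratio being 0.592 and 1.24. Trp53inp1 and Trp53 were nearly level in Tomato-negative cells, with a ratio of 1.04, and Trp53inp1 was at 0.474 of Trp53, and below Mdm2, in Tomato-positive cells. Zmat3 stood above Sesn2 in the first and below it in the second. With 1 value per fraction, whether neighbours in this order differ beyond the spread between samples was not tested.

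The core of the loop, p53 and Mdm2, was expressed in both fractions at moderate levels. Trp53 (chromosome 11, 69393860 to 69405375, mm9) stood at 18.7 and 25.3 FPKM. The log2 difference of 0.44 had an unadjusted p of 0.0385 and was not called, with q = 0.113 in the authors' deposited table. Unadjusted p-values below 0.05 were found for 3 of the 10 genes and for 36.0% of all tested genes. Mdm2 (chromosome 10, 117125943 to 117147814) was listed at 14.6 and 19.4 FPKM, a log2 difference of 0.41 with q = 0.235 in the authors' deposited table. The Mdm2 to Trp53 ratio was almost the same in the fractions, 0.780 without and 0.764 with the Tomato label.

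The arrest genes did not pass the test. Cdkn1a (chromosome 17, 29227923 to 29237667) encodes p21, the inhibitor of cyclin-dependent kinases through which p53 halts cells before S phase. It was the second most abundant of the 10 genes in Tomato-negative cells at 211 FPKM and was listed at 173 FPKM in Tomato-positive cells, a log2 difference of -0.29 with q = 0.249 in the authors' deposited table. Ccng1 (chromosome 11, 40562053 to 40568813) encodes cyclin G1, which brings a phosphatase to Mdm2. At 32.5 and 35.9 FPKM it had the smallest difference of the 10, a log2 value of 0.14 with q = 0.676 in the authors' deposited table.

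The p53 binding element of Cdkn1a is shown because this gene is a standard readout of p53 activity. RefSeq windows from 250 bases before to 50 bases after each gene start (mm10, GRCm38.p6) were given for 7 of the 10 genes, all but Trp53inp1, Perp and Zmat3. They were searched for the p53 consensus element, a pair of decamers. Only pairs back to back, with at most 2 mismatches outside the cores, were counted. Pairs with bases between the decamers and elements outside these windows were not searched for. The element reads the same on both strands. It was found in 1 of the 7 genes, Cdkn1a, and in 0.189% of all 27025 genes with a window. By windows, it was found in 0.158% of all 32851. In Cdkn1a it lies in the window of the upstream start, and the window of the other start (chr17:29093519-29093818) held no element. The element, in capitals, begins 51 bases before the upstream start and holds 1 mismatch (chr17:29090923-29090952, plus strand, mm10).
Cdkn1a: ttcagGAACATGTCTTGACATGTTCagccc

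A single decamer without mismatch was found in 4 of the 7 genes and in 9.55% of all genes with a window. Those of the core loop and of cyclin G1 are given with the decamer in capitals, read on the strand of the gene. They lie at chr11:69580274-69580303 for Trp53 (plus strand), chr10:117710925-117710954 for Mdm2 (minus strand) and chr11:40755452-40755481 for Ccng1 (minus strand), all in mm10. The windows of Phlda3, Sesn2 and Gdf15 held no exact decamer, which says only that these letters are not in these windows.
Trp53: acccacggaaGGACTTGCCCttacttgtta
Mdm2: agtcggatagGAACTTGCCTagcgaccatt
Ccng1: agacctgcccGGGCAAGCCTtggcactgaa

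Among the effectors, Phlda3 and Trp53inp1 were called, in opposite directions. Phlda3 (chromosome 1, 137662695 to 137665713) encodes a small protein made of little more than a pleckstrin homology domain, which competes with AKT for membrane lipids. It rose from 125 to 215 FPKM, a log2 difference of 0.78 with q = 0.00345 in the authors' deposited table. Of all tested genes, 85.7% had a log2 difference at or below that of Phlda3. Trp53inp1 (chromosome 4, 11083577 to 11101526) encodes a stress-induced nuclear protein. It fell from 19.4 FPKM to 12.0 FPKM, a log2 difference of -0.69 with q = 0.0029 in the authors' deposited table. A log2 difference at or below this was found for 20.1% of tested genes.

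Perp and Zmat3 did not pass. Perp (chromosome 10, 18564876 to 18576879), a membrane protein of desmosomes and a target of p63 as well as p53, had a log2 difference of 0.24 with q = 0.627 in the authors' deposited table. Zmat3 (chromosome 3, 32233717 to 32264600), an RNA-binding zinc finger protein, was listed at 9.52 and 6.65 FPKM, a log2 difference of -0.52 with q = 0.277 in the authors' deposited table. Of the genes that were not called, Zmat3 and Gdf15 had the most negative log2 differences.

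The stress genes shared with the integrated stress response did not pass either. Sesn2 (chromosome 4, 132047946 to 132066416), a leucine-sensing inhibitor of mTORC1, was listed at 5.97 and 7.39 FPKM, a log2 difference of 0.31 with q = 0.306 in the authors' deposited table. A predicted gene, Gm12981, is listed at the same locus at 0 and 0.0970 FPKM and was not tested. Gdf15 (chromosome 8, 73153291 to 73156355), a secreted stress cytokine of the TGF-beta superfamily, was listed at 0.838 and 0.508 FPKM. Its log2 difference of -0.72 was close in size to that of Phlda3, but at this low level it had q = 0.461 in the authors' deposited table. Only 3.92% of tested genes in the unlabelled and 4.63% in the labelled fraction stood at or below the level of Gdf15.

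**Figure D2:**
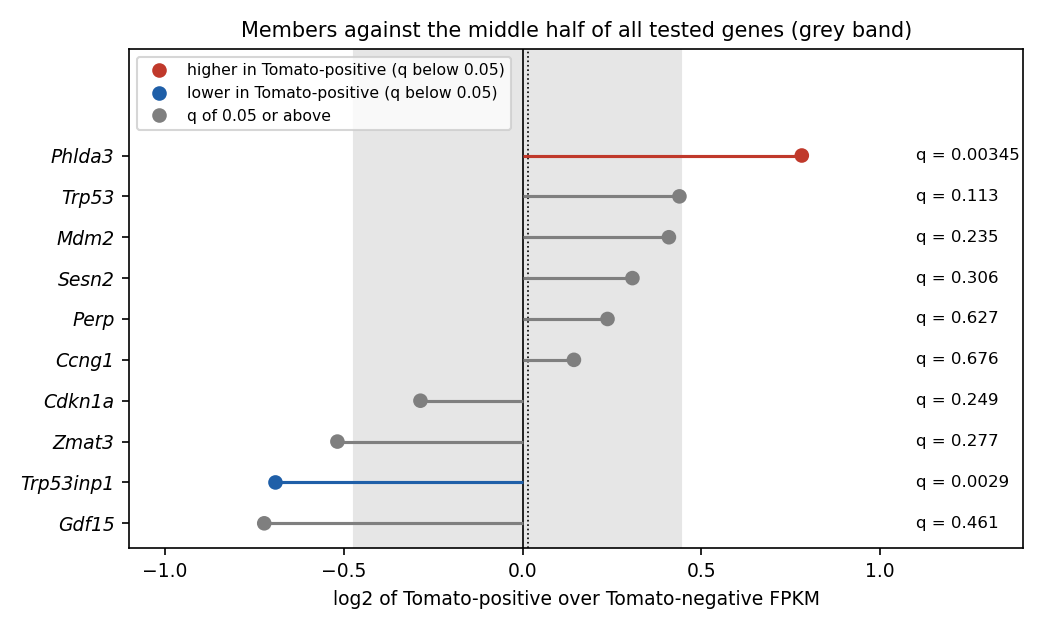
log2 of Tomato-positive over Tomato-negative FPKM for the 10 genes, ordered by value, with the authors' q-value beside each. The grey band runs from the lower quartile (-0.47) to the upper quartile (0.44) of all tested genes with both values above 0 and the dotted line is at their median (0.02). The band holds 6 of the 10, while Phlda3, Trp53inp1, Gdf15 and Zmat3 lie outside it.

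The fractions differed in markers of other cell types. Skeletal muscle markers were lower in 6 of 7 in Tomato-positive cells, their summed level going from 1581 to 119 FPKM, and fibroblast and pericyte markers were lower in 8 of 8, from 571 to 96.2 FPKM. Macrophage markers were lower in 7 of 8, from 364 to 106 FPKM, and gland markers in 6 of 8 with 1 higher, from 208 to 21.3 FPKM. Lymphocyte markers were lower in 1 of 4 tested, summing to 9.51 and 5.83 FPKM over all 8 listed, the second value mostly Ptprc. Cd4 was called lower, from 1.58 to 0.0842 FPKM. Cd3d (2.29 and 0.145 FPKM) and Cd3e (1.22 and 0.17 FPKM) were numerically lower but not called. Ptprc (3.42 and 4.93 FPKM) was numerically higher and not called. Neutrophil markers were higher in 5 of 6 tested, from 1410 to 10933 FPKM over all 10 listed, nearly all of it S100a8 and S100a9, which keratinocytes also express. Csf3r, the receptor of a granulocyte growth factor, rose from 0.637 to 17.1 FPKM, Retnlg from 0.856 to 19.2 FPKM and the chemokine receptor Cxcr2 from 3.13 to 5.51 FPKM. The neutrophil granule genes Mpo, Elane, Camp and Ngp and the surface gene Ly6g stood below 1 FPKM in both fractions. Of 6 endothelial markers 4 were higher and 1 lower, from 18.8 to 33.0 FPKM, and of 8 keratinocyte markers 6 were higher and 1 lower, from 6355 to 21907 FPKM. No listed marker was at 0 in either fraction. Fewer cells of a type and less RNA per cell cannot be told apart in such samples. The part of these cell types in the differences of Phlda3 and Trp53inp1 was not tested.

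Some members of the same gene families were called where the p53 genes above were not. The family of Trp53 had 1 called gene, Trp63, which encodes p63 and rose from 66.0 to 110 FPKM, a log2 difference of 0.74 with q = 0.000405 in the authors' deposited table. No q-value in the table is lower, and 2004 genes share it. Trp63 thus stood above Trp53 in both fractions, while Trp73 did not pass at 1.53 and 2.06 FPKM. Mdm4, the Mdm2 relative that blocks p53 activity, did not pass at 5.38 and 4.15 FPKM, the authors' deposited table giving q = 0.25.

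The relatives of the called genes moved as follows. Trp53inp2, an autophagy gene, fell as Trp53inp1 did, from 21.6 to 12.2 FPKM, a log2 difference of -0.82 with q = 0.000758 in the authors' deposited table. Phlda1 rose with Phlda3, from 27.4 to 93.6 FPKM, a log2 difference of 1.77 with q = 0.000405 in the authors' deposited table. Phlda2, an imprinted gene, did not pass at 13.0 and 13.5 FPKM. Of the 3 sestrins, Sesn1 fell from 33.9 to 16.3 FPKM, a log2 difference of -1.06 with q = 0.000405 in the authors' deposited table. Sesn2 and Sesn3 (8.33 and 10.4 FPKM) did not pass, and whether the sestrins differed from each other in response was not tested. The relatives of p21, Cdkn1b (20.4 and 16.9 FPKM) and Cdkn1c (3.38 and 3.33 FPKM), and the cyclin G gene Ccng2 (16.0 and 20.3 FPKM) did not pass.

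**Figure D3:**
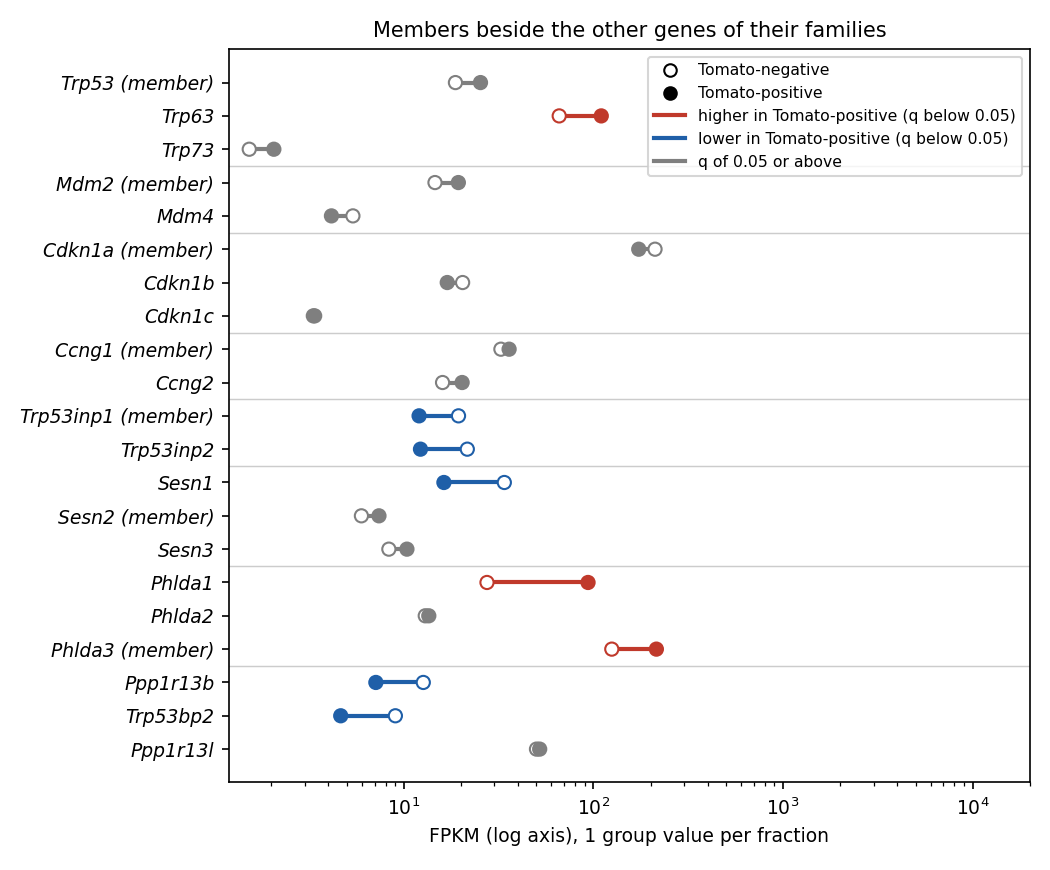
FPKM on a log axis for 21 genes of 8 families, with open circles for Tomato-negative and filled circles for Tomato-positive cells, 1 group value each; grey rules separate families and "member" marks the p53 genes described above. Both Trp53inp genes fell, Phlda1 and Phlda3 rose, Sesn1 fell, and the p21 and cyclin G families have no called gene.

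Among 24 genes of the p53 family and its regulators, 3 were called higher and 3 lower, with a median log2 difference of -0.05. These shares of 12.5% each are near the 13.0% and 14.2% over all tested genes. Higher were Trp63, Cdkn2a and Chek2. Cdkn2a, whose single row covers the transcripts of both p16Ink4a and the Mdm2 inhibitor p19Arf, rose from 42.9 to 90.6 FPKM. Chek2, a checkpoint kinase that phosphorylates p53, rose from 2.75 to 7.26 FPKM. The genes called lower were Ppm1d, a phosphatase that switches p53 signalling off, from 14.3 to 7.996 FPKM, and both activating members of the ASPP family. Of these, Ppp1r13b (ASPP1) fell from 12.7 to 7.11 FPKM and Trp53bp2 (ASPP2) from 9.02 to 4.64 FPKM. The inhibitory member Ppp1r13l (iASPP) did not pass at 50.04 and 52.0 FPKM. All 6 called genes had q = 0.000405 in the authors' deposited table. The most abundant uncalled genes were Rpl11 (628 and 586 FPKM) and Rpl5 (332 and 360.2 FPKM), ribosomal proteins that can bind Mdm2, and the damage kinases Atm (8.52 and 7.78 FPKM) and Atr (2.38 and 3.06 FPKM) did not pass.

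Further p53 targets and family relatives of the p53 genes, in 4 lists with 59 tested genes, were called higher in 10 and lower in 10. These shares of 16.9% each stood beside 13.0% and 14.2% over all tested genes, and the median log2 difference was -0.02. The counts include relatives such as Phlda1 (higher) and Trp53inp2 (lower), so the shares are not those of p53 targets alone. Among 17 other arrest and feedback genes, 5 were higher and 3 lower. Sfn, which encodes 14-3-3 sigma and holds cells in G2, rose from 1080 to 2233 FPKM, a log2 difference of 1.05. The early response gene Ier3 rose from 81.4 to 184 FPKM. The other genes called higher were Phlda1, Ckap2 (6.99 to 12.6 FPKM) and Gtse1 (3.14 to 5.29 FPKM), the last a mitotic gene that counters p53. Besides Trp53inp2, the spindle gene Psrc1 (9.52 to 3.92 FPKM) and the non-coding Pvt1 (2.02 to 1.023 FPKM) fell. The antiproliferative gene Btg2 (29.9 and 31.3 FPKM) and Sertad1 (25.2 and 31.9 FPKM) did not pass.

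Of 15 apoptosis targets, 2 were higher and 1 lower. Pmaip1, which encodes the BH3-only protein Noxa, rose from 4.35 to 17.8 FPKM, a log2 difference of 2.03, and Trp53i11 rose from 5.46 to 17.1 FPKM. Ei24 fell from 66.2 to 47.9 FPKM, a log2 difference of -0.47 with q = 0.0286 in the authors' deposited table. The inflammatory caspase gene Casp1 (71.4 and 78.1 FPKM) and Bax, the pore-forming death gene (64.4 and 61.5 FPKM), did not pass, nor did the others. None of 10 repair targets was called by Cuffdiff's q, with 1 at an unadjusted p below 0.05. That one, the damage sensor Ddb2, went from 6.25 to 3.22 FPKM in value, for which the authors' deposited table gives q = 0.0734. The most abundant repair genes, Ercc5 (7.03 and 7.92 FPKM) and Polh (6.46 and 7.29 FPKM), did not pass.

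Of the 4 lists, that of metabolic and antioxidant genes had the most calls, 3 higher and 6 lower of 17, with a median log2 difference of -0.12. The peroxidase Gpx1 rose from 693 to 1057 FPKM, and the mTORC1 inhibitor Ddit4, also a hypoxia gene, from 28.5 to 104 FPKM. Prkab2, an AMP kinase subunit, rose from 3.04 to 4.66 FPKM. The epoxide hydrolase Ephx1 fell from 97.2 to 31.9 FPKM and the lysosomal fucosidase Fuca1 from 86.4 to 47.4 FPKM. The others called lower were Sesn1, Fdxr, Dcxr and Cpt1c. Prkab1, another AMP kinase subunit (17.1 and 18.4 FPKM), and Sesn3 did not pass.

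**Figure D4:**
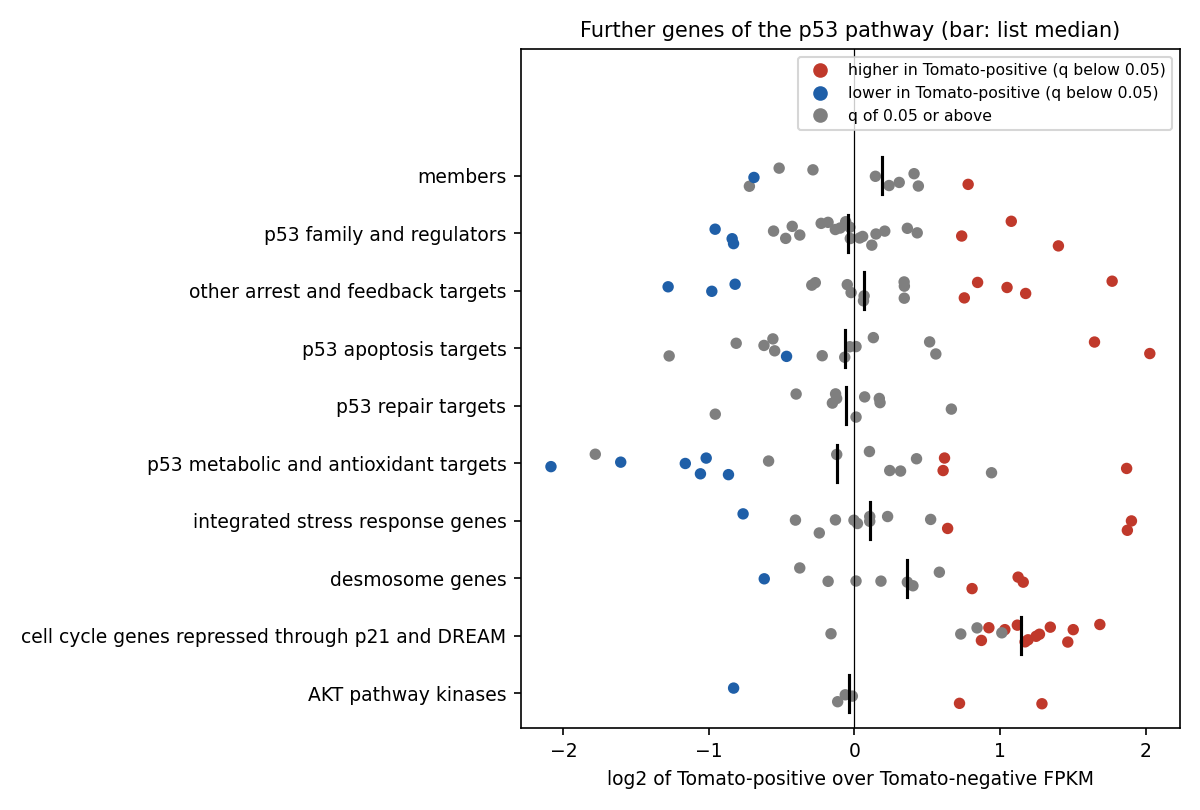
log2 of Tomato-positive over Tomato-negative FPKM for each tested gene of the p53 genes and of 9 further lists, with coloured dots for called genes and a black bar at each list's median. The AKT list is drawn with Pdk1, which the text leaves out of its count. The bars of the 4 lists of p53 targets and relatives lie between -0.12 and 0.07, and that of the cell cycle genes lies at 1.15.

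Genes that share other pathways with the p53 genes were counted in the same way, beside the same 13.0% higher and 14.2% lower over all tested genes. Of 13 tested genes of the integrated stress response, which also raises Sesn2 and Gdf15, 3 were higher and 1 lower. Asns rose from 45.7 to 71.3 FPKM, Vldlr from 1.99 to 7.32 FPKM and Atf3 from 1.48 to 5.55 FPKM, and the serine synthesis gene Phgdh fell from 35.6 to 20.97 FPKM. Atf4 itself (172 and 185 FPKM) and Cebpb (178 and 150.3 FPKM) did not pass. Of 11 tested desmosome genes, the structures Perp belongs to, 3 were higher and 1 lower. The basal cadherins Dsg3 (77.0 to 172 FPKM) and Dsc3 (115 to 251 FPKM) rose together with Dsc2, and the suprabasal Dsc1 fell from 247 to 161 FPKM. The plaque genes Jup (764 and 1144 FPKM) and Pkp3 (768 and 678 FPKM) did not pass, as was the case for Perp.

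Cell cycle genes that p21 is known to repress through the DREAM complex rose in 12 of 16 by Cuffdiff's q. The count of those lower was 0, at an unadjusted p below 0.05 too. Their median log2 difference was 1.15. The mitotic kinase gene Cdk1 rose from 19.99 to 64.3 FPKM. Top2a rose from 35.5 to 65.0 FPKM, Birc5 (survivin) from 18.3 to 34.7 FPKM and Ccna2 from 12.7 to 26.0 FPKM. Cdc20 (17.6 and 31.5 FPKM) and Foxm1 (2.77 and 4.60 FPKM) did not pass. Cdkn1a was not called in the same comparison. Whether p21, or the share of dividing cells in each fraction, had a part in these differences was not tested.

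Of 5 genes of the pathway that Phlda3 inhibits, 1 was higher and 1 lower. Akt1 rose from 40.2 to 66.3 FPKM, a log2 difference of 0.72 with q = 0.00399 in the authors' deposited table. Akt2 (25.2 and 24.2 FPKM) did not pass. The lipid kinase subunit Pik3cb fell from 12.5 to 7.04 FPKM. Pdk1, also listed and called higher (14.6 to 35.6 FPKM), encodes a kinase of pyruvate dehydrogenase and not a kinase of AKT, and was left out of this count. The gene for the kinase that activates AKT, Pdpk1, did not pass at 14.6 and 13.5 FPKM.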

How the data were processed

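RNA of 4 samples was sequenced, 2 per sorted fraction, from libraries made with a KAPA kit, per the labels' protocols. TopHat, Cuffdiff and the build mm9 were used, per the submitters' processing notes. The sources used here give no versions, strand setting or annotation. The authors' deposited table gives 1 FPKM value per gene and fraction, with the p-value and q-value of the authors' own comparison. A Benjamini-Hochberg adjustment of the deposited p-values over the 16219 tested genes gave the deposited q-values to within 5.27e-07. log2 differences were computed from the FPKM values without a pseudocount. No per-sample values were used, so there is no SD, no leave-one-out value, and no depth per sample. The p-values come from the authors' Cuffdiff fit with 2 samples per fraction. Any spread between samples that enters them is that of these samples only, and may be technical. Overlapping genes share the deposited locus coordinates but have rows and values of their own, and without a stated strand setting reads of a gene and an antisense partner cannot be told apart. The 4865 small RNA rows took up 39.1% of summed FPKM in the unlabelled and 40.7% in the labelled fraction.

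The 10 genes, the 9 pathway lists and the 8 marker lists were chosen with earlier results of these data known. From each list the rule named up to 4 called genes and up to 2 uncalled genes of highest mean FPKM. Others, such as Chek2, Trp53bp2, Ppp1r13l, Mdm4, Atm, Atr, Ckap2, Gtse1, Psrc1, Pvt1, Prkab2, Ddb2, the further genes of the 8 families and those named without values, were chosen after their values were seen. Some genes are not reported here and were left out of the lists. Older symbols were matched by Ensembl ID. The adjustment was tested on simulated p-values. The tools were NumPy 2.4.6, pandas 2.3.3 and matplotlib 3.10.9 under Python 3.11.15, with SciPy 1.17.1.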

Additional observations from a re-analysis of the deposited data

How the results depend on the processing

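With a minimum 2-fold difference beside q below 0.05, 0 p53 genes were called higher and 0 lower, where 7.11% and 9.67% of all tested genes were. At q below 0.01 or 0.1, and with at least 1 or 5 FPKM in the higher fraction and the p-values readjusted over the genes left, the counts were 1 higher and 1 lower each time. The median log2 difference of the p53 genes, 0.19 as reported, was 0.17 when centred on the median of all tested genes, 0.16 when rescaled without small RNA rows, 0.21 when rescaled without the 100 rows of highest mean FPKM, and 0.14 without Phlda3, the gene with the largest difference. The sign of each gene's log2 difference was the same in all 50 values under another pseudocount or scaling, but no sign could have changed. A pseudocount added to both values keeps the sign. The scalings shifted every gene by -0.02, -0.03 or 0.02, less than the smallest log2 difference of 0.14 in size. List counts under the same thresholds, 90 in all, were an alternative added after the data were seen. Of these, 79 were equal to the count at q below 0.05 or within 1.5 times of it. Counts of 0 set against 0 are among them, and the AKT list was counted with Pdk1. Most of the other 11 came from the 2-fold minimum. Leaving out a replicate was not run. No paired analysis was possible because the table holds 1 joined value per fraction.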

Other observations

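The tested genes next to the p53 genes on their chromosomes, 20 in all with 1 on each side, were called higher in 2 cases and lower in 3. The share called, 25%, is near the 27.2% of all tested genes, so single called neighbours are given as values only. Csrp1, a LIM domain protein gene 13886 bases from Phlda3, rose from 152 to 272 FPKM, a log2 difference of 0.84 beside 0.78 for Phlda3, with q = 0.000405 in the authors' deposited table. On the other side of Phlda3, Tnni1 did not pass at 2.12 and 2.31 FPKM. The non-coding gene 4930429B21Rik, whose locus lies 96 bases from that of Zmat3, fell from 3.32 to 1.21 FPKM (q = 0.00499 by the authors' deposited table), while Zmat3 did not pass. Wrap53, whose deposited locus lies 103 bases from that of Trp53, was listed at 7.996 and 7.05 FPKM, a log2 difference of -0.18 with q = 0.73 in the authors' deposited table. Both neighbours of Perp, 143836 and 298994 bases away, were called, the NF-kappa-B inhibitor gene Tnfaip3 higher, from 1.15 to 9.20 FPKM, and Hebp2 lower, from 119.8 to 41.2 FPKM. These neighbours were looked up after the data were seen.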
